A study of Mus musculus with 8 samples.

Results

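Cd83 and 7 other genes for surface proteins of activated lymphocytes and antigen-presenting cells (Cd80, Cd86, Cd69, Cd44, Cd38, Cd200 and Slamf1) were followed through the transcriptomes of regulatory T (Treg) cells. They are 8 of the 52459 genes listed by symbol and were taken by name. Cd83 was selected on these same values, for a difference between genotypes that changed strongly with stimulation, so its values are given as a description without a test, and tests were read for the other 7. All 8 passed the filter of a mean of at least 10 normalized counts that left 15419 genes for testing. 

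Treg cells of C57BL/6 mice were sorted as CD4+CD25hi from spleen and lymph nodes of pooled female mice heterozygous for a Foxp3-YFPcre allele, with both Stim1 and Stim2 floxed. Cre was driven by the X-linked Foxp3 locus, so YFPcre- cells of these females served as WT and YFPcre+ cells as Stim1/2-deficient, and genotype was bound to expression of the Cre allele. Cells of each genotype were left unstimulated or kept for 16 h on plate-bound anti-CD3/CD28 at 1 µg/ml, with 2 libraries in each of 4 groups. The ages of the mice are not given in the sources used here. Since each library came from pooled mice and the labels do not state separate experiments, p-values measure the spread between these libraries.

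The deposited values are gene-wise read counts scaled by the authors to a size factor of each library (normalized counts from here on), with 11851853 to 16306540 reads per library on genes. A single read was worth 0.759 to 1.48 normalized counts. Unstimulated libraries ran on one sequencing lane and stimulated libraries on another, so lane and stimulation cannot be told apart, whereas each lane carried both genotypes. Stim1 stood at 1139 and 1377 normalized counts for unstimulated WT cells and at 1538 and 1868 for cells labelled Stim1/2-deficient. Stimulated WT libraries held 645 and 673, and labelled ones 552 and 642. Stim2 stood at 906 and 908 against 904 and 744 before stimulation, and at 665 and 782 against 620.2 and 696 after it. Neither gene was called in either state by limma, and whole-gene sums do not show the floxed exons separately, so these counts do not check the labels. The second genotype is therefore called the labelled cells or libraries. For the genotype itself, the paper reports that YFPcre+ Treg cells of such females lacked store-operated calcium entry. It also reports loss of both transcripts by RT-PCR in Treg cells of males. Unstimulated labelled replicate 1 stood apart, with summed macrophage markers of 11181 and B cell markers of 5094 normalized counts, several times those of any WT library. The counts that lead a comparison are given also without it, and an equal count need not cover the same genes.

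STIM1 and STIM2 sense the calcium content of the endoplasmic reticulum and open ORAI channels at the plasma membrane when the store empties, for example after T cell receptor ligation. The calcium entry activates calcineurin and the NFAT transcription factors. The proteins studied here take different parts in the encounter of a Treg cell with its surroundings. CD83 is an immunoglobulin-family protein best known from mature dendritic cells and also found on activated lymphocytes, CD80 and CD86 are B7 ligands of CD28 and CTLA-4, and CD69 holds cells in lymphoid tissue. CD44 is a hyaluronan receptor of activated and memory T cells, CD38 is an ectoenzyme that consumes NAD, CD200 is the ligand of an inhibitory receptor, and SLAMF1 is a self-ligand.

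**Figure D1:**
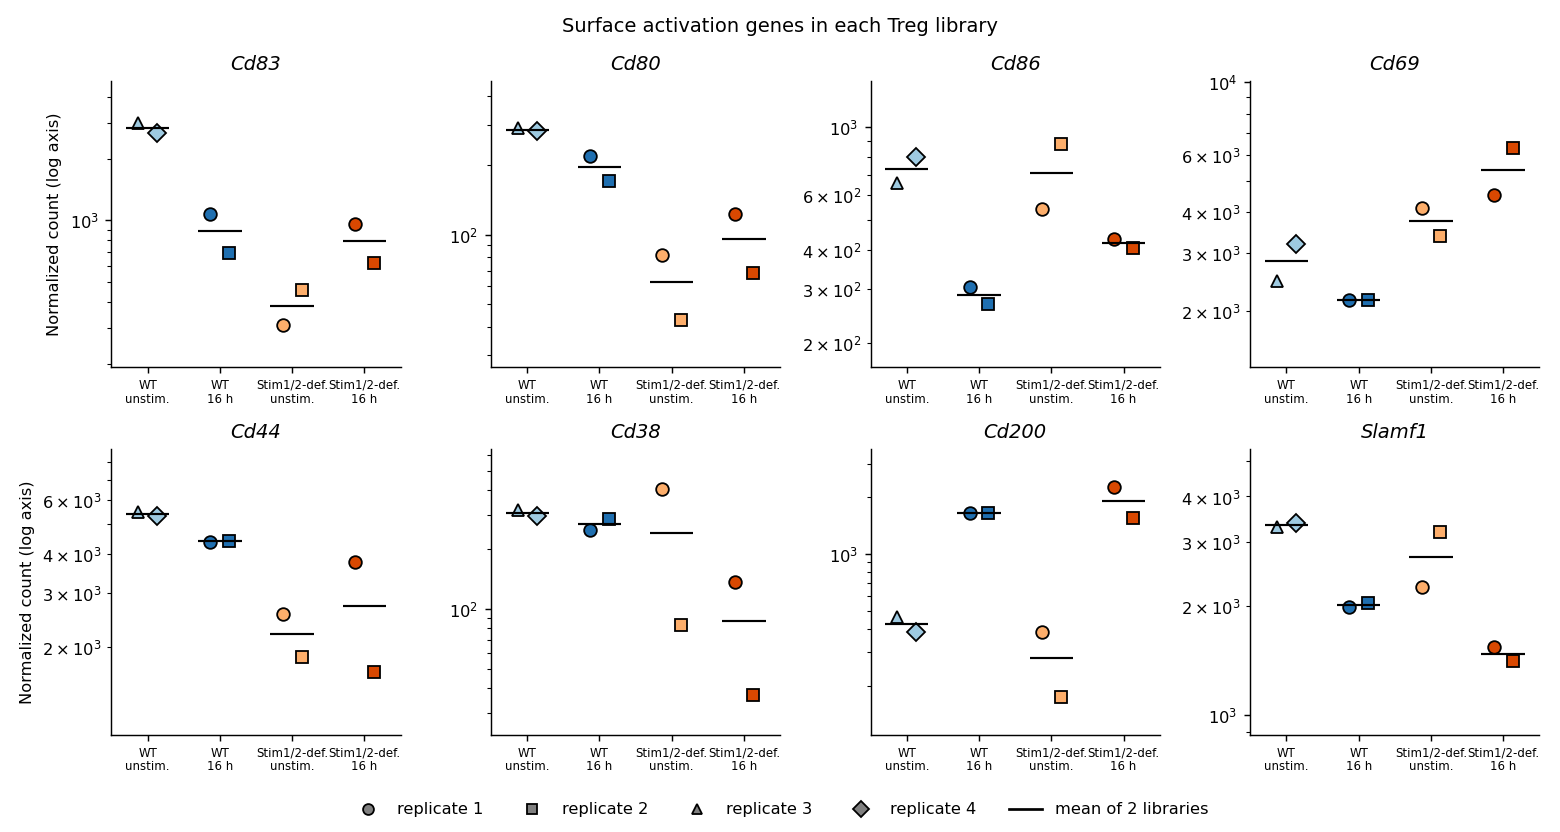
Normalized counts (log axis) of the 8 genes in each library, by genotype and state, with 1 symbol for each replicate number and a bar at the mean of 2 libraries. Cd83 lay at 2989 and 2668 in the unstimulated WT libraries and at 308 and 455 in the labelled ones.

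Cd83 was the gene of this group with the largest difference between genotypes in unstimulated cells, and the difference was not seen in stimulated cells. Its selection, on the change of this difference with stimulation, favoured both. Cd83 lies on chromosome 13 from 43785112 to 43803133 (GRCm38). Unstimulated WT libraries held 2989 and 2668 normalized counts, and the labelled ones 308 and 455. After stimulation the WT values were 1074 and 697 and the labelled ones 959 and 620. Both unstimulated labelled libraries thus lay below every other library, and the 4 stimulated libraries were interleaved. In unstimulated cells the log2 difference of labelled minus WT was -2.91 (standard error 0.29), a 7.52-fold lower value. In stimulated cells it was -0.17 (standard error 0.29), and its sign turned to 0.15 without WT replicate 1 or without labelled replicate 2. 

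The 2 genotypes moved in opposite directions with stimulation. In WT cells Cd83 stood lower after stimulation by a log2 difference of -1.71, and in labelled cells it stood higher by 1.04 (standard error 0.29 for each). Genes lower in both stimulated WT libraries than in both unstimulated ones, and higher in both stimulated labelled libraries, made up 1.78% of all genes tested, and the opposite pattern 1.64%. The genotype-by-stimulation difference of Cd83 was 2.74 on the log2 scale (standard error 0.41), and 2.01% of the genes tested had a larger absolute value. It stayed between 2.43 and 3.06 over the alternatives run. With libraries rescaled to equal totals the fall in WT cells shrank to -1.19, since that scaling moved the median of all genes by 0.52 in this comparison.

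The place of Cd83 among the 8 genes also moved. Per kilobase of exon (lengths from GENCODE M1), unstimulated WT cells held 1752 normalized counts of Cd69, 1264 of Cd83, 982 of Slamf1 and 790 of Cd44, and 193 or less of each of the other four genes. Unstimulated labelled cells held 2316 of Cd69, 799 of Slamf1, 322 of Cd44, 189 of Cd86 and 171 of Cd83 per kilobase. Cd83 was therefore 2nd in the former and 5th in the latter, next to Cd86, from which it did not differ there beyond the spread (SD 46.5 and 62.6 per kilobase, n = 2). After stimulation Cd83 was 5th in both genotypes, with 396 per kilobase in WT and 353 in labelled cells. Cd69 was 1st in all 4 groups.

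Within a library the ratio of 2 genes does not depend on the scaling. Cd83 over Cd86 was 4.56 and 3.33 in unstimulated WT libraries and 0.566 and 0.519 in the labelled ones. After stimulation it was 3.54 and 2.60 in WT and 2.21 and 1.53 in labelled libraries. The labelled libraries were the lower ones in both states by this ratio. Cd83 over Cd44 was 0.543 and 0.501 in unstimulated WT against 0.120 and 0.247 in labelled cells, and 0.245 and 0.158 against 0.254 and 0.375 after stimulation, where the labelled libraries were the higher ones. Cd83 over Cd80 was 10.3 and 9.46 against 3.77 and 10.7, which overlap, and 4.87 and 4.06 against 7.79 and 9.06 after stimulation, again with the labelled libraries higher. The order of the genotypes after stimulation thus depended on the gene that Cd83 was set against.

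**Figure D2:**
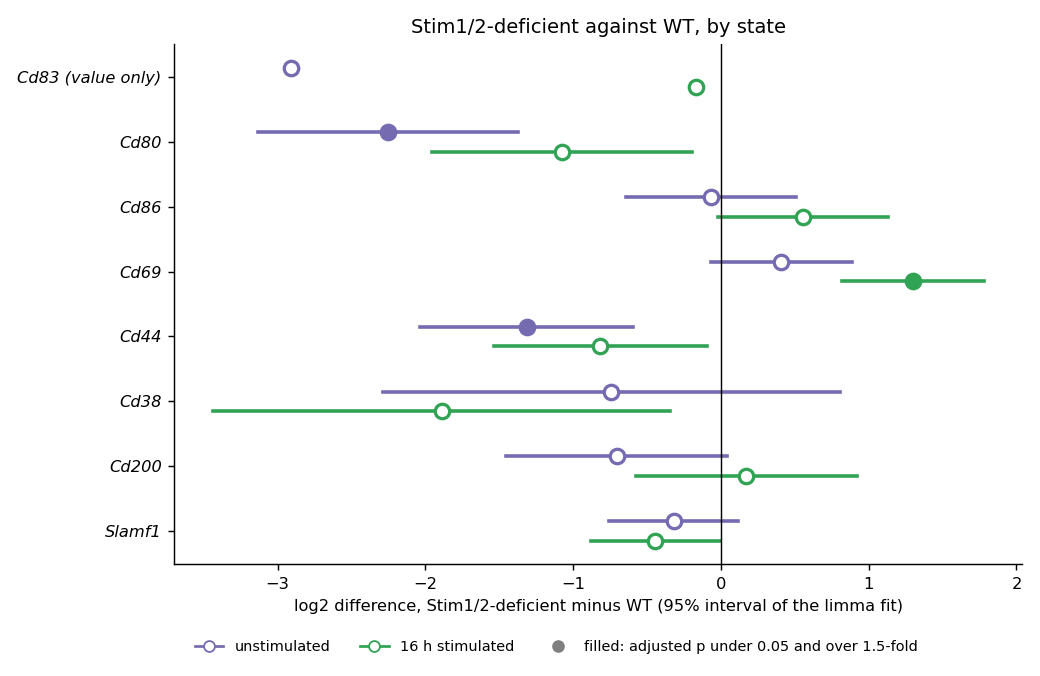
Log2 difference of labelled Stim1/2-deficient minus WT libraries (horizontal axis) for each gene, in unstimulated and 16 h stimulated cells. Bars are 95% intervals of the limma fit, none is drawn for Cd83, and filled symbols passed an adjusted p of 0.05 and 1.5-fold. Cd80 and Cd44 were filled before stimulation and Cd69 after it.

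Of the 7 genes tested, 2 were lower in unstimulated labelled cells, Cd80 and Cd44, and 0 were higher by limma, edgeR or DESeq2, nor any at an unadjusted p under 0.05. Of all genes, 3.35% were called lower and 1.38% higher in that comparison by limma with Benjamini-Hochberg adjustment. A different gene, Cd69, was higher in stimulated labelled cells, where 0.162% of all genes were called higher and 0.11% lower. None of the 7 was called lower there by the 3 tools, and at an unadjusted p under 0.05 limma counted 4 lower, Cd80, Cd44, Cd38 and Slamf1. No difference between the genotype effects of the 2 states was called for the 7 genes by limma, edgeR or DESeq2, and limma called 0% of all genes there. At an unadjusted p under 0.05 limma counted 1 of the 7 in that contrast, Cd69, which was also over 1.5-fold, as were 4.57% of all genes in the positive and 3.52% in the negative direction. With Cd83 included, 5 of the 8 lay in unstimulated labelled libraries below both WT libraries and 1 above them, where 27.1% and 26.5% of all genes did. In stimulated cells 4 lay below and 2 above, against 23.1% and 24.3% of all genes. With stimulation 7 of the 8 went below and 1 above their unstimulated libraries in WT cells (36% and 35% of all genes), and 2 and 3 in labelled cells (30.6% and 30.8%). Cd83, favoured by its selection, was among the 5, the 7 and the 3, and overlapped between genotypes in stimulated cells. The WT count depended on the scaling. With equal totals the WT log2 changes of Cd69, Cd44 and Cd38 turned to 0.14, 0.22 and 0.32, and the median of all genes moved by 0.52. These bulk values do not separate fewer cells expressing a gene from less RNA of it per cell.

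The B7 ligands parted in unstimulated cells, with Cd80 lower in the labelled libraries and Cd86 overlapping between genotypes. Both genes lie on chromosome 16, Cd80 from 38457430 to 38495958 and Cd86 from 36568956 to 36666158 (GRCm38). Unstimulated WT libraries held 290.3 and 282 normalized counts of Cd80, and the labelled ones 81.8 and 42.7. The 2 labelled libraries lay below both WT libraries, and the log2 difference was -2.25 (standard error 0.40, limma adjusted p = 0.0173), a 4.77-fold lower value. Left-out libraries ended this call in 2 cases, without WT replicate 3 (limma adjusted p = 0.217) and without WT replicate 4 (limma adjusted p = 0.0978), where a single WT library remained and the difference itself stayed at -2.23 and -2.28.

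After stimulation WT libraries held 221 and 172 of Cd80, labelled libraries 123 and 68.4. The groups again did not overlap, and the log2 difference of -1.08 (standard error 0.40, limma adjusted p = 0.255) did not pass the test. Cd80 moved with stimulation by -0.55 in WT cells (limma adjusted p = 0.336) and by 0.62 in labelled cells (limma adjusted p = 0.270). The difference of these changes was 1.18 (95% interval -0.07 to 2.43, limma adjusted p = 0.625), in the direction of Cd83 and unresolved. Cd80 was the member nearest to Cd83 in pattern, at rank 37 of all genes by root mean square difference of centred log2 values over the 8 libraries (0.58).

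Of the 8 genes, 5 had a promoter window in the RefSeq table used (GRCm38.p6), from 250 bases before to 50 bases after the start. Slamf1, Cd44, Cd38, Cd80 and Cd200 were these, and Cd83, Cd69 and Cd86 were not. The windows were searched on both strands for the kappa B motif, AP-1 (TGANTCA), the NFAT core (GGAAA) and the CRE half-site (TGACG), which 8.46%, 7.81%, 61.34% and 20.81% of all 32851 windows held. No 2 matches overlapped. The Cd80 window held an AP-1 match at -42 and none of the other 3 motifs. The start used by the table for Cd80 lies inside the span given above, downstream of the first annotated base. The 250 bases before that start, chr16:38458683-38458932 on the plus strand, are shown because Cd80 had the largest tested genotype difference, with the match in capitals.
Cd80: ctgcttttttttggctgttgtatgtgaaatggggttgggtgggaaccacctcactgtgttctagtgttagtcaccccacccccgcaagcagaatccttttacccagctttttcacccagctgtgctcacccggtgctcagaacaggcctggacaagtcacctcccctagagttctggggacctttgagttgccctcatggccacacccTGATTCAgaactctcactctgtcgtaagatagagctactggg

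Cd86 was as high in unstimulated labelled cells as in WT cells, within the spread of the libraries. WT libraries held 656 and 801 normalized counts, and labelled libraries 544 and 877. The labelled pair enclosed the WT pair, and the log2 difference was -0.07 (95% interval -0.65 to 0.51, limma adjusted p = 0.910), with the sign turning to 0.05 with equal totals, to 0.07 without WT replicate 4 and to 0.28 without labelled replicate 1. After stimulation WT libraries held 303 and 268, and labelled libraries 434 and 406. The labelled pair was then the higher one without overlap, by 0.56 on the log2 scale (standard error 0.26, limma adjusted p = 0.380). 

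Cd86 fell with stimulation in WT cells by 1.34 on the log2 scale (standard error 0.26, limma adjusted p = 0.00628), where 13.1% of all genes were called lower and 10.2% higher. The call was lost without unstimulated WT replicate 4 (limma adjusted p = 0.0696) or without stimulated WT replicate 2 (limma adjusted p = 0.0611). In labelled cells the log2 change was -0.72 (limma adjusted p = 0.0676), called by DESeq2 (adjusted p = 0.0338) and not by limma. The ratio of Cd86 to Cd80 within a library was 2.26 and 2.84 in unstimulated WT libraries and 6.65 and 20.5 in labelled ones. After stimulation the WT ratios were 1.37 and 1.56, and the labelled ones 3.53 and 5.94. All 4 labelled libraries were above all 4 WT libraries by this ratio.

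Cd69, the early activation antigen that binds the sphingosine-1-phosphate receptor S1PR1 and removes it from the surface, was the only one of the 7 tested genes that was higher in stimulated labelled cells by the test. It lies on chromosome 6 from 129267324 to 129275375 (GRCm38). Stimulated WT libraries held 2161 and 2165 normalized counts and the labelled ones 4521 and 6289. The labelled libraries were above every other library, and the log2 difference was 1.30 (standard error 0.22, limma adjusted p = 0.0481), a 2.46-fold higher value. The call sat at the threshold. It was lost with every gene above 0 tested (limma adjusted p = 0.126), with equal totals (0.0542), by edgeR (adjusted p = 0.0673), and without WT replicate 1, WT replicate 2 or labelled replicate 2 (0.247, 0.380 and 0.310).

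In unstimulated cells Cd69 stood at 2465 and 3216 for WT, and at 4120 and 3388 for the labelled cells. The pairs did not overlap, and the labelled one was higher by a log2 difference of 0.41 that did not pass the test (95% interval -0.07 to 0.89, limma adjusted p = 0.299). With stimulation Cd69 moved by -0.38 in WT cells (limma adjusted p = 0.226), where equal totals turned the sign to 0.14, and by 0.51 in labelled cells (limma adjusted p = 0.106), where equal totals made it a call at 0.90 (limma adjusted p = 0.0125). Cd69 and Cd83 were the 2 members whose WT libraries went down and labelled libraries went up without overlap on the deposited scaling. Cd83 over Cd69 within a library was 1.21 and 0.830 in unstimulated WT against 0.0748 and 0.134 in labelled libraries, and 0.497 and 0.322 against 0.212 and 0.0985 after stimulation.

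S1pr1 itself stood at 6141 and 4991 for unstimulated WT and at 4988 and 11805 for labelled cells, and at 645 and 829 against 1274 and 3146 after stimulation. It fell with stimulation by 2.92 on the log2 scale in WT cells (limma adjusted p = 0.00237) and by 1.94 in labelled cells (limma adjusted p = 0.0112). The genotype difference after stimulation, 1.45, did not pass the test (limma adjusted p = 0.168), although the labelled pair was higher than the WT pair without overlap.

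Cd44 was lower in unstimulated labelled cells, and its labelled libraries differed widely from each other after stimulation. It lies on chromosome 2 from 102811141 to 102901669 (GRCm38). Unstimulated WT libraries held 5502 and 5324 normalized counts and labelled libraries 2559 and 1847. The labelled libraries held less than either WT library, a log2 difference of -1.32 (standard error 0.32, limma adjusted p = 0.0485), 2.49-fold lower. The call was lost with every gene above 0 tested (limma adjusted p = 0.0931), with equal totals (0.0679), by edgeR (adjusted p = 0.0710), and without WT replicate 3 (0.363), WT replicate 4 (0.173) or labelled replicate 2 (0.108).

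Stimulated WT libraries held 4388 and 4411 of Cd44, and labelled libraries 3775 and 1651. Replicate 2 thus stood far lower than replicate 1, a gap between replicates that 14.4% of the genes tested exceeded in that group. The log2 difference was -0.82 (limma adjusted p = 0.290), and -1.41 without labelled replicate 1 (limma adjusted p = 0.0155). Stimulation moved Cd44 by -0.30 in WT cells, or 0.22 with equal totals, and by 0.20 in labelled cells, or -0.04 without unstimulated labelled replicate 2 and -0.40 without stimulated labelled replicate 1, with limma adjusted p of 0.537 and 0.681 for the 8 libraries.

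The Cd44 window held 2 NFAT core matches, at -205 and -193, and none of the other 3 motifs. It is shown for the 250 bases before the start, chr2:102901666-102901915 on the minus strand, because Cd44 was the other gene called lower, with the matches on either strand in capitals.
Cd44: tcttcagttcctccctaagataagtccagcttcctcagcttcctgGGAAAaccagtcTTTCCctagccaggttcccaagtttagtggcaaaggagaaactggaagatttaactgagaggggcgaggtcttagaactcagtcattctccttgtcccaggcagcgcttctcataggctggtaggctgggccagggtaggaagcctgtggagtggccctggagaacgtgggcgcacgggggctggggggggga

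Cd38 varied more between the labelled replicates than between genotypes in unstimulated cells. It lies on chromosome 5 from 43868809 to 43912374 (GRCm38). WT libraries held 317 and 295 normalized counts before and 250.2 and 286 after stimulation. Labelled replicates 1 and 2 held 402 and 82.8 before and 137 and 37.2 after stimulation. Replicate 1 was above both WT libraries in unstimulated cells and replicate 2 below, a gap of 2.26 on the log2 scale that only 2.57% of the genes tested exceeded in that group. The log2 difference between genotypes was -0.74 (limma adjusted p = 0.578), and 0.39 without labelled replicate 2.

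In stimulated cells Cd38 was lower in the labelled pair without overlap, and the log2 difference of -1.89 (standard error 0.70, limma adjusted p = 0.255) did not pass the test. It was -0.97 without labelled replicate 2 and -2.82 without labelled replicate 1. Its change with stimulation in labelled cells was -1.34 (limma adjusted p = 0.182), called by DESeq2 (adjusted p = 0.0453). Without unstimulated labelled replicate 1, the library highest in macrophage, B cell and dendritic cell markers, the change was -0.21. It was -0.42 without stimulated replicate 2, -2.27 without stimulated replicate 1 and -2.47 without unstimulated replicate 2. The change in WT cells was -0.19, or 0.32 with equal totals. Nampt, which encodes an enzyme of NAD recycling, was lower in unstimulated labelled cells (log2 difference -1.51, limma adjusted p = 0.0417). It read 1048 and 2722 normalized counts there against 4422 and 5238 in WT libraries.

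Cd200 rose with stimulation in both genotypes, as the only one of the 7 tested genes that did. It lies on chromosome 16 from 45382111 to 45409060 (GRCm38). WT libraries held 465 and 384 normalized counts before stimulation and 1657 and 1657 after it, a log2 change of 1.97 (standard error 0.34, limma adjusted p = 0.00368). Labelled libraries held 383 and 175 before and 2253 and 1548 after, a log2 change of 2.85 (standard error 0.34, limma adjusted p = 0.000665), where 13% of all genes were called higher and 12% lower. The stimulated libraries were above every unstimulated library in both genotypes. The difference of the changes was 0.88 (95% interval -0.18 to 1.93, limma adjusted p = 0.647).

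Between genotypes Cd200 differed by -0.71 in unstimulated cells (limma adjusted p = 0.252), a call at -1.27 without labelled replicate 1 (limma adjusted p = 0.0250) and -0.14 without labelled replicate 2 (limma adjusted p = 0.767), and by 0.17 after stimulation (95% interval -0.57 to 0.92, limma adjusted p = 0.874), or -0.10 without labelled replicate 1. Cd200r1, the gene of its inhibitory receptor, read 263 and 251 in unstimulated WT libraries and 168 and 38.7 in labelled ones, and 424 and 545 against 85.0 and 59.9 after stimulation. The groups did not overlap in either state, and neither difference passed the test (log2 -1.66 and -2.73, limma adjusted p = 0.112 and 0.0650). The Cd200 window held a CRE half-site match at -200 and none of the other 3 motifs. It is shown for chr16:45409054-45409303 on the minus strand because Cd200 had the largest stimulation change of the 8 genes, with the match in capitals.
Cd200: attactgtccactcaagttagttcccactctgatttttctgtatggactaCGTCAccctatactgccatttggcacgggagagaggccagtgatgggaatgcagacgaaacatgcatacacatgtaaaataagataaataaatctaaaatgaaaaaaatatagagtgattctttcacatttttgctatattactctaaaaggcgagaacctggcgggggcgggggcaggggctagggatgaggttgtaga

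Slamf1 fell with stimulation in both genotypes. It lies on chromosome 1 from 171767131 to 171801184 (GRCm38). WT libraries held 3304 and 3380 normalized counts before and 1978 and 2030 after stimulation, a log2 change of -0.74 (standard error 0.20, limma adjusted p = 0.0229). Labelled libraries held 2247 and 3192 before and 1541 and 1409 after it, a log2 change of -0.86 (standard error 0.20, limma adjusted p = 0.0113). Stimulated libraries were below unstimulated ones throughout. With equal totals the changes were -0.22 and -0.47 and neither was called (limma adjusted p = 0.366 and 0.0678), and leaving out any of the 4 WT libraries also ended the WT call (limma adjusted p = 0.114 to 0.134). In labelled cells the call was lost without stimulated replicate 2 (limma adjusted p = 0.0570).

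Between genotypes Slamf1 was lower in both labelled libraries than in both WT libraries in each state, by log2 differences of -0.32 and -0.44 that did not pass the test (limma adjusted p = 0.378 and 0.357). Sh2d1a encodes SAP, the adaptor recruited by SLAM receptors. Unstimulated WT libraries held 476 and 493 normalized counts of it, labelled libraries 363 and 258, and after stimulation the values were 489 and 390 against 462 and 343, where neither difference passed the test (limma adjusted p = 0.171 and 0.875). Of 9 genes of the SLAM family and its adaptors, limma called 0 between genotypes in either state, as did edgeR and DESeq2, and at an unadjusted p under 0.05 limma counted 3 in unstimulated and 0 in stimulated cells. Without unstimulated labelled replicate 1, limma called 1 of the 9 in unstimulated cells.

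**Figure D3:**
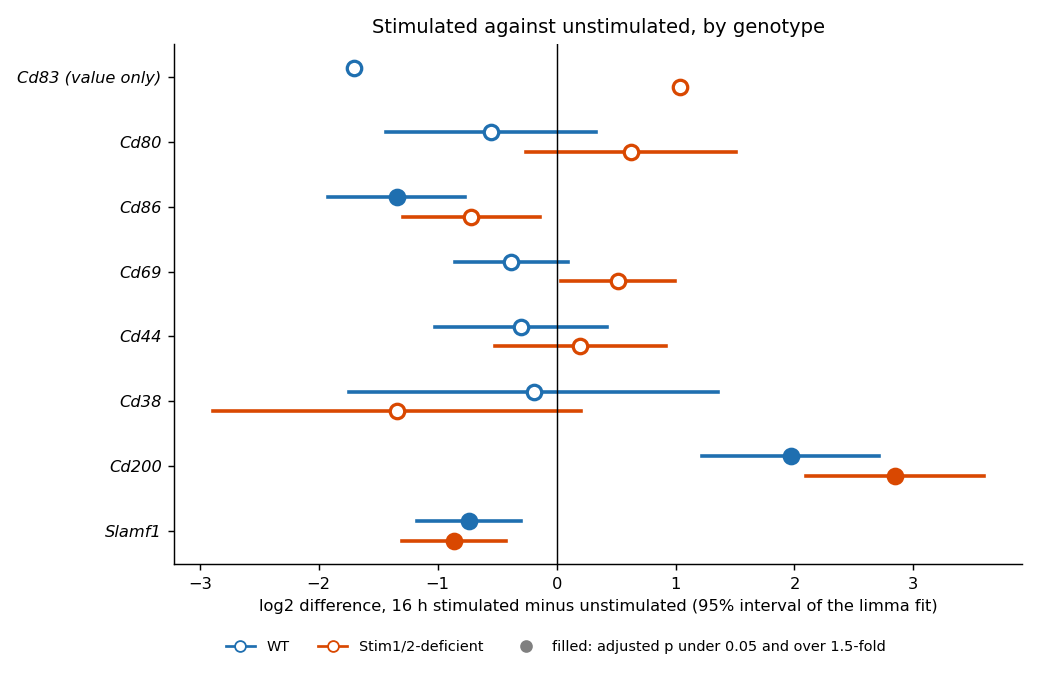
Log2 difference of 16 h stimulated minus unstimulated libraries (horizontal axis) for each gene in WT and labelled Stim1/2-deficient cells. Bars are 95% intervals of the limma fit, none is drawn for Cd83, and filled symbols passed an adjusted p of 0.05 and 1.5-fold. Cd200 was filled on the right and Slamf1 on the left in both genotypes, and the WT values of Cd69, Cd44 and Cd38 turn positive with equal totals.

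CD80 and CD86 bind a pair of receptors of opposite effect, CTLA-4 and CD28. Ctla4, the inhibitory receptor, was lower in unstimulated labelled libraries, with 6338 and 17333 normalized counts against 37403 and 35119 in WT libraries (log2 difference -1.79, standard error 0.37, limma adjusted p = 0.0271). After stimulation it read 9261 and 9849 against 17476 and 21926, and the log2 difference of -1.04 did not pass (limma adjusted p = 0.234). Cd28, the activating receptor, read 8749 and 17353 against 17335 and 17162 before stimulation and 5366 and 4463 against 7298 and 7087 after it, with no call between genotypes (limma adjusted p = 0.334 and 0.411). Cd28 fell with stimulation in both genotypes, by 1.26 and 1.33 on the log2 scale (limma adjusted p = 0.0102 and 0.00707).

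Cd274 encodes PD-L1, which binds CD80 on the same cell. Unstimulated WT libraries held 3166 and 3638 normalized counts of it, labelled libraries 2276 and 3988, and 2547 and 2374 against 5343 and 6538 after stimulation. The stimulated labelled libraries were above every other library, the genotype difference there was 1.26 on the log2 scale (limma adjusted p = 0.0637), and the rise with stimulation in labelled cells was called (0.97, limma adjusted p = 0.0189). Of 10 tested genes of the B7 and CD28 families besides Cd80 and Cd86, 3 were lower in unstimulated labelled cells, Icos, Pdcd1 and Ctla4, and 0 were higher by limma, edgeR or DESeq2 or at an unadjusted p under 0.05. Without labelled replicate 1 the number called was again 3. Icos, a costimulatory receptor, held 14389 and 13756 in WT against 1701 and 2098 in labelled libraries, and Pdcd1, which encodes PD-1, held 302 and 260.0 against 52.4 and 69.5. In stimulated cells limma and edgeR called 0 of the 10, DESeq2 called 2 lower and 1 higher, and at an unadjusted p under 0.05 limma counted 4 lower and 1 higher.

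**Figure D4:**
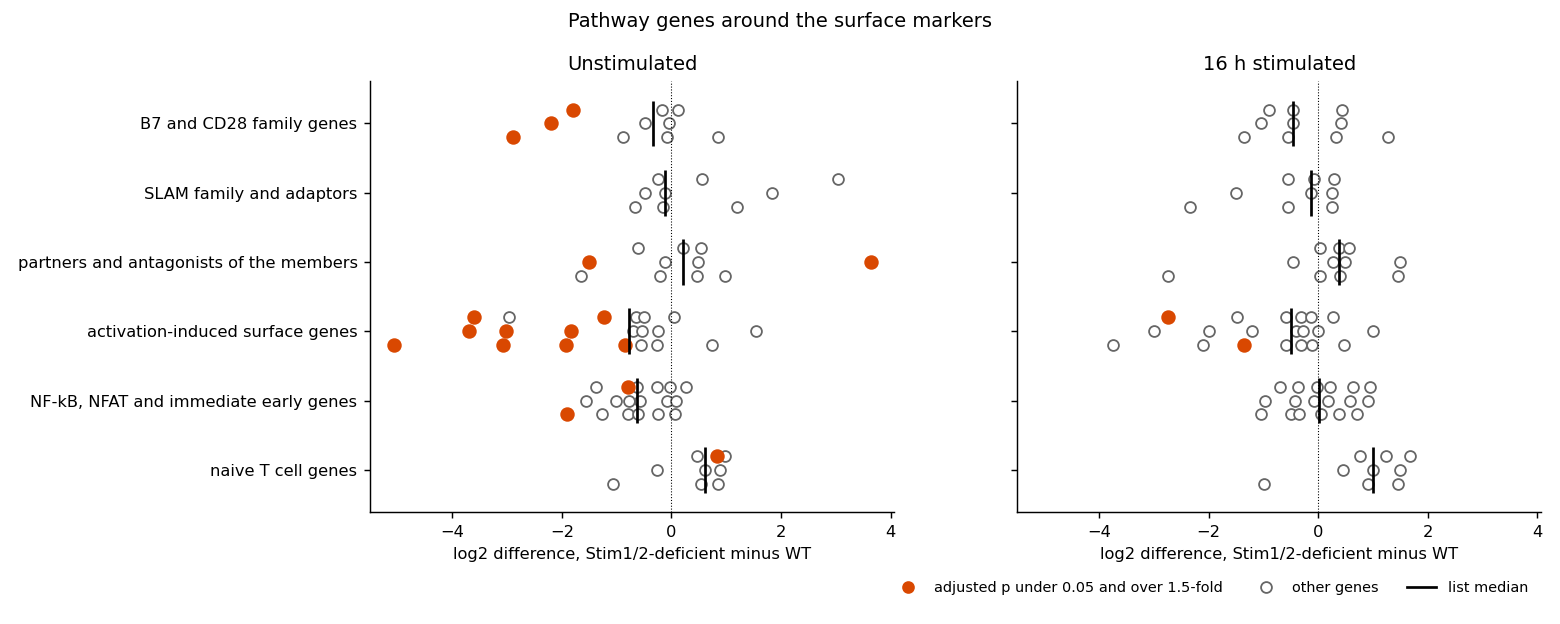
Log2 difference of labelled Stim1/2-deficient minus WT libraries (horizontal axis) for each tested gene of 6 lists, in unstimulated and stimulated cells, with filled points past the test and a bar at the list median. Activation-induced surface genes held 9 filled points on the left before stimulation and 2 after it.

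Among 20 other activation-induced surface genes, 9 were lower and 0 higher in unstimulated labelled cells, with a list median of -0.77 on the log2 scale against -0.01 for all genes. The largest were Klrg1, a receptor of differentiated effector cells (2136 and 1715 in WT against 155 and 20.03 normalized counts), and Havcr2, which encodes TIM-3 (1594 and 1322 against 208 and 60.1). The paper reports several genes of this list as lower in the same cells. The list was chosen with earlier results of these data known, so its count and median describe it and do not test it against all genes. Without labelled replicate 1 the count was again 9. At an unadjusted p under 0.05 limma counted 1 as higher, edgeR called 0 and DESeq2 1 in that direction. In stimulated cells 2 of the 20 were lower, Itgae (CD103; 1218 and 1609 against 322 and 136) and Tnfrsf9 (4-1BB; 6435 and 7068 against 2967 and 2334), and edgeR called neither. DESeq2 called 5 lower, and at an unadjusted p under 0.05 limma counted 8 lower and 2 higher. Itgae was also lower in unstimulated cells, and so was Tnfrsf9.

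Of 18 genes of the NF-kB and NFAT pathways and immediate early genes, 2 were lower in unstimulated labelled cells, Irf4 (3543 and 3498 in WT against 862 and 1030 normalized counts) and Nfatc1 (2499 and 2380 against 1418 and 1388). None was called higher by limma, edgeR or DESeq2. Without labelled replicate 1 the count was 1. In stimulated cells limma and edgeR called 0 of the 18, DESeq2 called 1 lower and 2 higher, and at an unadjusted p under 0.05 limma counted 3 lower and 2 higher. Of 9 naive T cell genes 1 was higher in unstimulated labelled cells, Bach2, a repressor of effector differentiation (3691 and 5361 against 2514 and 2477), and 4 were without labelled replicate 1. In stimulated cells limma and edgeR called 0 of the 9, DESeq2 called 6 higher and 1 lower, and at an unadjusted p under 0.05 limma counted 7 higher and 1 lower.

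March1 encodes a ubiquitin ligase that lowers CD86 and MHC class II on antigen-presenting cells, which CD83 opposes. It was higher in unstimulated labelled libraries, with 330.3 and 69.4 normalized counts against 10.8 and 11.8 in WT libraries (log2 difference 3.64, limma adjusted p = 0.0252), and read 25.4 and 15.2 against 9.35 and 18.2 after stimulation. It was highest in the same library as the macrophage, B cell and dendritic cell markers below. Of 11 partners and antagonists of the 8 proteins, March1 was called higher and Nampt lower in unstimulated cells, and without labelled replicate 1 the number called was again 2. In stimulated cells limma and edgeR called 0 of them, DESeq2 1 lower and 2 higher, and at an unadjusted p under 0.05 limma counted 2 lower and 2 higher.

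Several of these genes are also expressed by B cells, macrophages and dendritic cells, so markers of those cells were read in each library. Foxp3 was present in all libraries, with 10001 and 8159 normalized counts in unstimulated WT against 4947 and 4258 in labelled libraries, and 8525 and 11918 against 4474 and 7253 after stimulation. Cd4, Cd3e and Il2ra were read in every library, Cd3e at 2508 or more. Of the 8 T cell and Treg identity genes, 2 were lower in unstimulated labelled cells, Ctla4 and Ikzf2 (18953 and 19707 in WT against 8398 and 9233), and without labelled replicate 1 the number called was again 2. In stimulated cells limma and edgeR called 0 of them and DESeq2 called 1 lower, with 3 lower at an unadjusted p under 0.05 by limma.

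Macrophage and monocyte markers moved with genotype in unstimulated cells. The sum of 13 such genes was 1076 and 1130 in unstimulated WT libraries, 11181 and 1816 in labelled ones, 922 and 815 in stimulated WT and 580 and 333 in stimulated labelled libraries. Of 11 tested, 8 were called higher in unstimulated labelled cells and 2 were without labelled replicate 1. Mrc1 held 14.0 and 5.91 against 2702 and 346 normalized counts and was at 0 in all 4 stimulated libraries, C1qc was at 0 in all WT libraries against 197 and 41.4, and Csf1r held 18.4 and 28.1 against 1685 and 227. In stimulated cells limma, edgeR and DESeq2 called 0 of the 11 between genotypes, with 1 lower and 1 higher at an unadjusted p under 0.05 by limma. 

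B cell markers were also highest in the labelled libraries numbered 1. The sum of 13 such genes was 397 and 483 in unstimulated WT, 5094 and 1170 in unstimulated labelled, 1302 and 256 in stimulated WT and 2026 and 478 in stimulated labelled libraries. Of 12 tested, 2 were called higher in unstimulated labelled cells, among them Cr2 (35.6 and 39.9 against 606 and 176), and 1 was without labelled replicate 1. Cd79a read 8.63 and 13.3 against 95.4 and 40.1. Stimulated cells had 0 calls by limma, edgeR and DESeq2, and 1 higher at an unadjusted p under 0.05 by limma.

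Dendritic cell genes summed to 2171 and 1994 in unstimulated WT, 7601 and 1846 in unstimulated labelled, 2967 and 1551 in stimulated WT and 3828 and 1007 in stimulated labelled libraries. Itgax (CD11c) read 5.40 and 5.91 against 236 and 30.7 in unstimulated cells. Of the 10 tested dendritic cell genes, 5 were higher there in both labelled libraries than in both WT libraries, and 3 overlapped. The other 2, Zbtb46 and Xcr1, were lower in both labelled libraries. CD8 T and NK cell markers summed to 489 and 456, 1192 and 355, 947 and 579, and 1548 and 459 in the same order. No dendritic, CD8 T or NK cell gene was called between genotypes by limma or edgeR, DESeq2 called 2 dendritic cell genes higher in unstimulated cells, and at an unadjusted p under 0.05 limma counted 4 of 10 dendritic cell genes higher in unstimulated cells and 1 lower in stimulated ones, and 0 and 1 (higher) of the 7 CD8 T and NK cell genes.

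Set beside these sums, Cd38 was highest in unstimulated labelled replicate 1. Among the labelled libraries it followed the order of the macrophage, B cell, dendritic cell, and CD8 T and NK cell sums within each state. This means only that replicate 1 was above replicate 2 in each state. Cd80, Cd44 and Cd200 shared that order, and Cd83, Cd69, Cd86 and Slamf1 did not. Over all labelled libraries the order of Cd38 was that of the B cell and dendritic cell sums but not of the other sums. Axl, itself on the macrophage list, was among the 5 genes nearest to Cd38. It also read 655 to 827 in the WT libraries, where Mrc1 read 0 to 14.0. The part of these cells in the Cd38 values was not tested. That part was not tested for Cd83 either. In stimulated cells of each genotype, Cd83 and the B cell, macrophage and dendritic cell sums were all higher in replicate 1 than in replicate 2. Cd83 read 1074 against 697 in WT and 959 against 620 in labelled libraries. In unstimulated labelled replicate 1 Cd83 ran the other way, lowest of all libraries at 308, where the B cell, macrophage and dendritic cell sums were highest. Without that library the log2 genotype difference of Cd83 in unstimulated cells was -2.63, and 3 of the 7 tested genes were called lower, Cd80, Cd44 and Cd200.

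**Figure D5:**
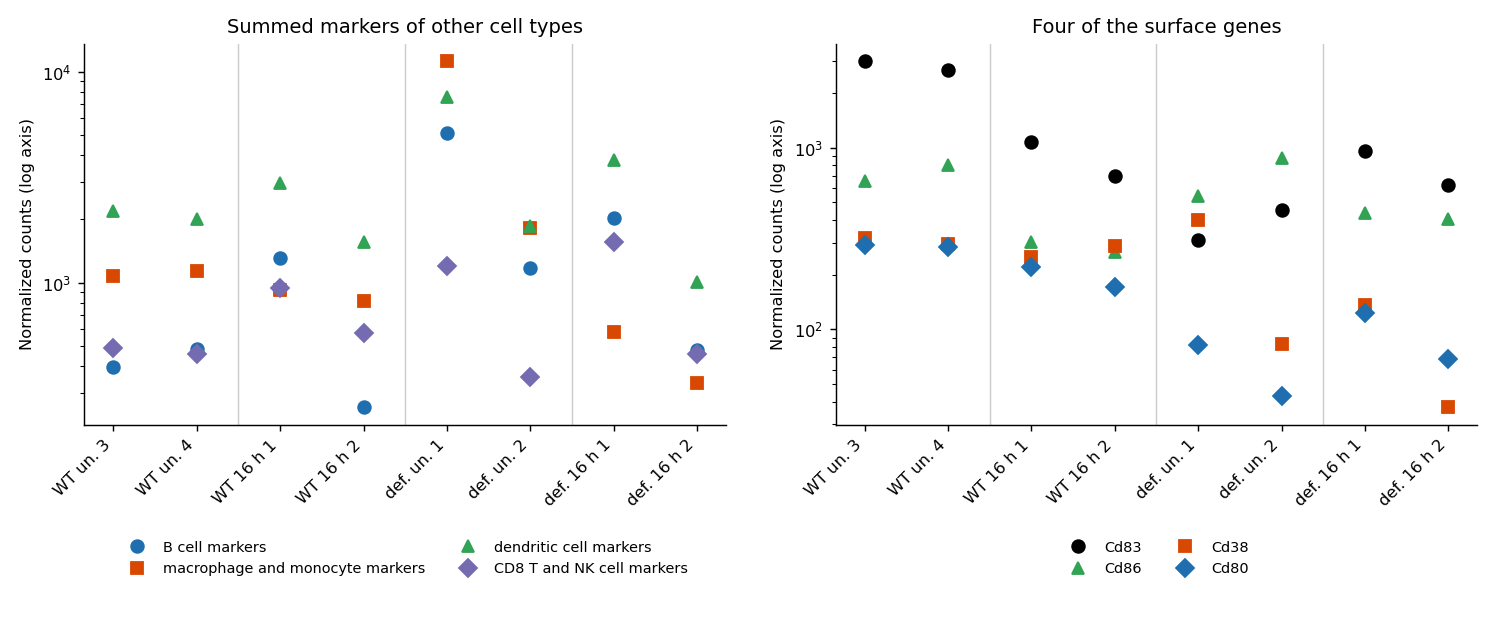
Summed normalized counts of markers of other cell types (left) and normalized counts of Cd83, Cd86, Cd38 and Cd80 (right) in each library, both on log axes, with 1 point for each library. Unstimulated labelled replicate 1 held the highest macrophage (11181), B cell (5094) and dendritic cell (7601) sums, the highest Cd38 value (402) and the lowest Cd83 value (308).

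The genes with the profile nearest to each member over the 8 libraries were found by root mean square difference of centred log2 values, as a description. For Cd83 they were Sdcbp2 (0.38), Gabarapl1 (0.38), Cxcl10 (0.40), Samd11 (0.44) and Itgav (0.45), and Cxcl10, for example, read 1581 and 1557 in unstimulated WT against 186 and 228 in labelled libraries. Other members had closer neighbours. For Slamf1 they were Pop4 (0.09), Ivns1abp, Zmiz1, Twf1 and Fem1c, for Cd86 Ccser2 (0.11), Kdm3a, Tgoln1, Avl9 and Rlf, and for Cd69 Ms4a6b (0.14), Gm20559, Gbp8, Gm11131 and H2-M3. Cd44 was nearest to Tstd3 (0.15), Ptch1, Nsd2, Tmem2 and Brca2, and Cd80 to Tmbim1 (0.18), Ncapg2, S100a11, Top2a and Pola1. Cd38 was nearest to Hip1 (0.20), Gm15774, Myo1f, Axl and Ccdc18, and Cd200 to Dna2 (0.21), Nme6, Rmi2, Pros1 and Srm.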

How the data were processed

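RNA from sorted Treg cells was sequenced in 8 libraries, grouped by the labelled genotype and state. The deposited signal values are gene counts that the authors scaled by a size factor of each library, and at least 99.99% of the values were whole multiples of 1 read within 0.011 normalized counts, so whole reads were recovered. DESeq2 size factors departed from that scaling by at most 9.69e-05 percent. The paper's methods give Bowtie, NCBIM37 and a TruSeq RNA kit not described as stranded, whereas the submitters' processing notes name STAR 2.7, mm10, bcl2fastq 1.8.4 and DESeq2, and the labels a stranded kit. Of 4897 deposited symbols between Gm33000 and Gm49999, 0 are in GENCODE M1 (NCBIM37), so positions are from RefSeq GRCm38. Which strand setting was used for counting is not settled, and overlapping or antisense genes may share reads.

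The log2 of each value plus a pseudocount of 1 entered limma 3.58.1 in R 4.3.3 (lmFit, then eBayes with the trend option), with genes kept from a mean of 10 upwards, in a single model of 4 groups, with 5 contrasts, 2-sided tests, Benjamini-Hochberg adjustment within each contrast over 15419 genes, and calls at an adjusted p under 0.05 and over 1.5-fold. Fold changes are on that log2 scale. Checks used simulated data. Alternatives were a pseudocount of 5, every gene above 0, equal library totals, edgeR 4.0.16 and DESeq2 1.42.0 on recovered reads, each library left out, and a replicate block. Genes named are the 8 members, their fixed partners, cell type markers and, per list, up to 2 called genes in each direction, those most changed between genotypes. Members and lists were chosen with earlier results of these data known. Values of 2 genes that the naming rule covers are not reported here.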

Additional observations from a re-analysis of the deposited data

Results flagged for a closer look

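The genotype-by-stimulation difference of Cd83, 2.74 on the log2 scale, is listed because the WT and labelled cells moved in opposite directions in every library. Cd83 was lower in both stimulated WT libraries than in both unstimulated ones, and higher in both stimulated labelled libraries than in both unstimulated ones. The difference was not tested, because it chose the gene.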

How the results depend on the processing

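Rescaling to equal totals moved the median of all genes by 0.12 on the log2 scale between genotypes in unstimulated cells, -0.01 in stimulated cells, -0.13 in their difference, 0.52 with stimulation in WT cells and 0.39 in labelled cells, and the share of calls that were lower went from 70.8% to 59.4%, from 40.5% to 41.2%, from 56.0% to 18.6% and from 48.2% to 22.1% in the 4 comparisons with calls. It turned Cd86 between genotypes in unstimulated cells to 0.051 and the WT stimulation change of Cd69, Cd44 and Cd38 to 0.14, 0.22 and 0.32. The cause of other changes was not tested. Of the 7 tested genes, 1 was called in unstimulated cells (2 in the chosen fit) with every gene above 0, with equal totals and by edgeR, and 0 were called in stimulated cells (1 in the chosen fit) under the same 3 settings. DESeq2 called 4 with stimulation in labelled cells. All genes called between genotypes in unstimulated cells were 362 with every gene above 0, 484 by edgeR and 1338 by DESeq2, against 730. In stimulated cells they were 74 with a pseudocount of 5, 1 with every gene above 0, 1 by edgeR and 550 by DESeq2, against 42, and DESeq2 called 50 for the difference of the genotype effects, against 0 by limma and edgeR.

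Leaving out each library in turn gave 0 to 3 of the 7 genes and 8 to 1298 of all genes between genotypes in unstimulated cells, fewest without WT replicate 3, and 0 to 2 and 0 to 762 in stimulated cells, most without labelled replicate 1. It gave 0 to 196 of all genes for the difference of the effects, most without unstimulated labelled replicate 2, 1 to 2 of the 7 and 971 to 1262 of all genes with stimulation in WT cells, and 1 to 3 of the 7 with stimulation in labelled cells. Values whose sign turned ranged, between genotypes in unstimulated cells, from -1.87 to 0.39 for Cd38 and from -0.41 to 0.28 for Cd86, in stimulated cells from -0.48 to 0.15 for Cd83 and from -0.10 to 0.44 for Cd200, for the difference of the effects from -0.10 to 1.09 for Cd44 and from -0.38 to 0.13 for Slamf1, and with stimulation in labelled cells from -0.40 to 0.80 for Cd44. With 1 library left in a group, it is assumed to vary like the others.

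Replicate numbers are shared by the stimulated groups and by the labelled groups, 2 pairs each. Deviations of same-numbered libraries correlated across genes at r = 0.17 and 0.26, and with 2 pairs the numbers are not taken as pairs. A replicate block on 4 libraries called 393 genes between genotypes in stimulated cells (202 lower and 191 higher), and the same 4 libraries without a block, a fit chosen after seeing the data, called 1 gene and 0 of the 7. With stimulation in labelled cells the fit without a block called 1752 genes and 1 of the 7, and with the block Cd38 was called (-1.34, limma adjusted p = 0.0102).

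With 2 libraries a group, calls near the threshold, such as Cd44 and Cd69, rest on few values. The lowest member value, 37.2 normalized counts of Cd38, was above the 2.28 to 4.43 that 3 reads are worth, so depth did not limit the detection of the 8 genes. Intervals cover the spread of these libraries.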
